A study of Danio rerio with 9 samples.

Results

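Lysyl oxidases are secreted copper enzymes that crosslink collagen and elastin, and their RNA was followed in zebrafish atrioventricular valve tissue at 48 h and at 21 d after valve cells had been ablated, and in uninjured tissue. The genes were chosen by symbol, with earlier results of these data known. Of the 7 symbols loxa, loxb, loxl1, loxl2a, loxl2b, loxl3a and loxl3b, 6 had a row among the 21692 genes of the table, and loxb was not analysed here. Of these 6, 5 passed the filter on low values, a normalised count of at least 10 in at least 3 libraries, along with 17891 genes in all. The 5 were above that minimum in every library, so none passed through 1 group alone, and loxl3a did not pass.

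The study compared 48 h after ablation, 21 d after ablation and uninjured tissue, with 3 libraries in each group and 9 in all. Fish were ablated with metronidazole at 2.5 mM over 6 h, each in its own container and in darkness; such drugs kill cells that carry a nitroreductase transgene. The transgene, the promoter that targets the cells, the strain, the age of the fish and whether uninjured fish were bathed in the drug are not given in the sources used here. Valve tissue was cut from heart cryosections by laser, and each library is described as 2 hearts. No source used here says that the 3 libraries of a group hold different fish. The p-values then measure only how these samples spread, which may be technical.

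Lysyl oxidases turn lysine side chains of collagen and elastin into reactive aldehydes, which then join neighbouring chains into crosslinks. The founding enzyme LOX is secreted as a proenzyme and cut by bone morphogenetic protein 1 and related proteases, with fibronectin and periostin as scaffolds of that step in mammals. In mice, loss of Lox weakens arteries, and loss of Loxl1 impairs elastic fibres. LOXL2 and LOXL3 carry scavenger-receptor cysteine-rich domains ahead of the catalytic domain, and LOXL2 acts on collagen IV of basement membranes. A heart valve leaflet bears load through its collagen and elastic layers. Many of these genes have a pair of copies in zebrafish, marked a and b, from a genome duplication in fish.

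Values are normalised read counts, the reads of a gene divided by a size factor of the library. Column totals ran from 15383031 to 21616553, and size factors read from the steps between low values were between 0.851 and 1.398 reads per unit. Every marker with a row was above 0 in every library, for each cell type listed. The 8 markers of valve interstitial cells and fibroblasts, all measured, summed to between 0.290% and 0.404% of the values at 48 h, between 0.567% and 0.656% at 21 d and between 0.665% and 0.786% in uninjured tissue. The 7 macrophage markers summed to between 0.0421% and 0.0724% at 48 h, between 0.0145% and 0.0227% at 21 d and between 0.00693% and 0.0112% in uninjured tissue. The 7 smooth muscle and mural markers summed to between 0.0495% and 0.0654% at 48 h, between 0.0322% and 0.0498% at 21 d and between 0.0728% and 0.101% in uninjured tissue. This sum and that of interstitial cells and fibroblasts were both lower after ablation without overlap. Not every marker went that way. At 48 h the smooth muscle markers notch3 and tagln and the interstitial marker tcf21 had higher means than in uninjured tissue. None of these differences passed (limma adjusted p = 0.162, 0.980 and 0.778), and the other markers of both lists had lower means. The 7 measured cardiomyocyte markers of 8 summed to between 1.77% and 2.22% at 48 h, between 3.04% and 3.72% at 21 d and between 2.84% and 3.44% in uninjured tissue. The symbol actc1a had 2 rows, both in this sum, and 1 of them differed from it in direction. That row had 20042, 19182 and 12619 at 48 h and 416, 330 and 207 at 21 d. In uninjured libraries 1 to 3 it had 29710, 166 and 165. The 7 endothelial markers summed to between 0.162% and 0.283% at 48 h, between 0.122% and 0.125% at 21 d and between 0.0999% and 0.146% in uninjured tissue. These markers were divided at 48 h. Klf2a was called lower than in uninjured tissue (log2 fold change -0.76, limma adjusted p = 0.00631). Kdrl had a lower mean and did not pass (limma adjusted p = 0.4997). The others had higher means, of which tie1 and fli1a passed (limma adjusted p = 0.0184 and 0.00635). Erythrocyte markers, all 5 measured and hbba1 by 2 rows, summed to between 1.87% and 4.04% at 48 h. Their sum was between 5.37% and 7.66% at 21 d and between 3.41% and 7.15% in uninjured tissue. For thrombocytes, 4 measured markers of 5 summed to between 0.0677% and 0.0753% at 48 h. That sum was between 0.0669% and 0.0909% at 21 d and between 0.0673% and 0.0845% in uninjured tissue. Of the 8 interstitial and fibroblast markers, 5 (col1a1a, col1a2, dcn, lum and postnb) also stand in gene lists described here. So do elnb among the smooth muscle markers, mfap4 among the macrophage markers and thbs1b among the thrombocyte markers. Those lists and marker sums are therefore not separate measurements. The part of any of these shifts in the results that follow was not tested, and in bulk tissue fewer cells of a type and less RNA per cell cannot be told apart.

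Every lysyl oxidase gene that could be tested had a lower mean at both times after ablation than in uninjured tissue. At 48 h, loxa and loxl2b passed the test (limma-trend, Benjamini-Hochberg adjusted p under 0.05 over all tested genes), so 2 of 5 were lower and 0 higher, where 6.33% of all tested genes were lower, 4.44% higher and 10.8% either. At 21 d, loxa and loxl1 passed, again 2 of 5 lower and 0 higher, where 0.933% of all tested genes were lower, 0.52% higher and 1.45% either. The median log2 fold change of the 5 was -1.14 at 48 h and -0.87 at 21 d, against medians of 0.01 and 0.02 over all tested genes. At an unadjusted p under 0.05, 5 were lower and 0 higher at 48 h, where 12.3% of all tested genes were lower and 10.9% higher. At 21 d 4 were lower and 0 higher at that threshold, where 6.27% were lower and 5.61% higher. Both comparisons share the uninjured libraries, and the genes were chosen with earlier results of these data known, so the shares over all genes are given as description. In 5 of 5 genes no library at 48 h reached the lowest uninjured library, and the same held at 21 d, where 13.6% and 9.46% of all tested genes were lower without overlap. These separations are of the values as deposited. The column total of 48 h library 3 was 15383031, against at least 18877857 in uninjured tissue. Scaled to equal totals, this library reached the uninjured range in loxa, loxl1, loxl2a and loxl3b, but not in loxl2b. At 21 d only loxl2a then overlapped uninjured tissue. The related genes loxl4 and loxl5a, outside the 7 symbols, also passed the filter, and both overlapped uninjured tissue at both times. At 21 d the fitted log2 fold change of loxl5a was 0.87 (95% interval -2.88 to 4.62), and that of loxl4 was -0.36.

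**Figure D1:**
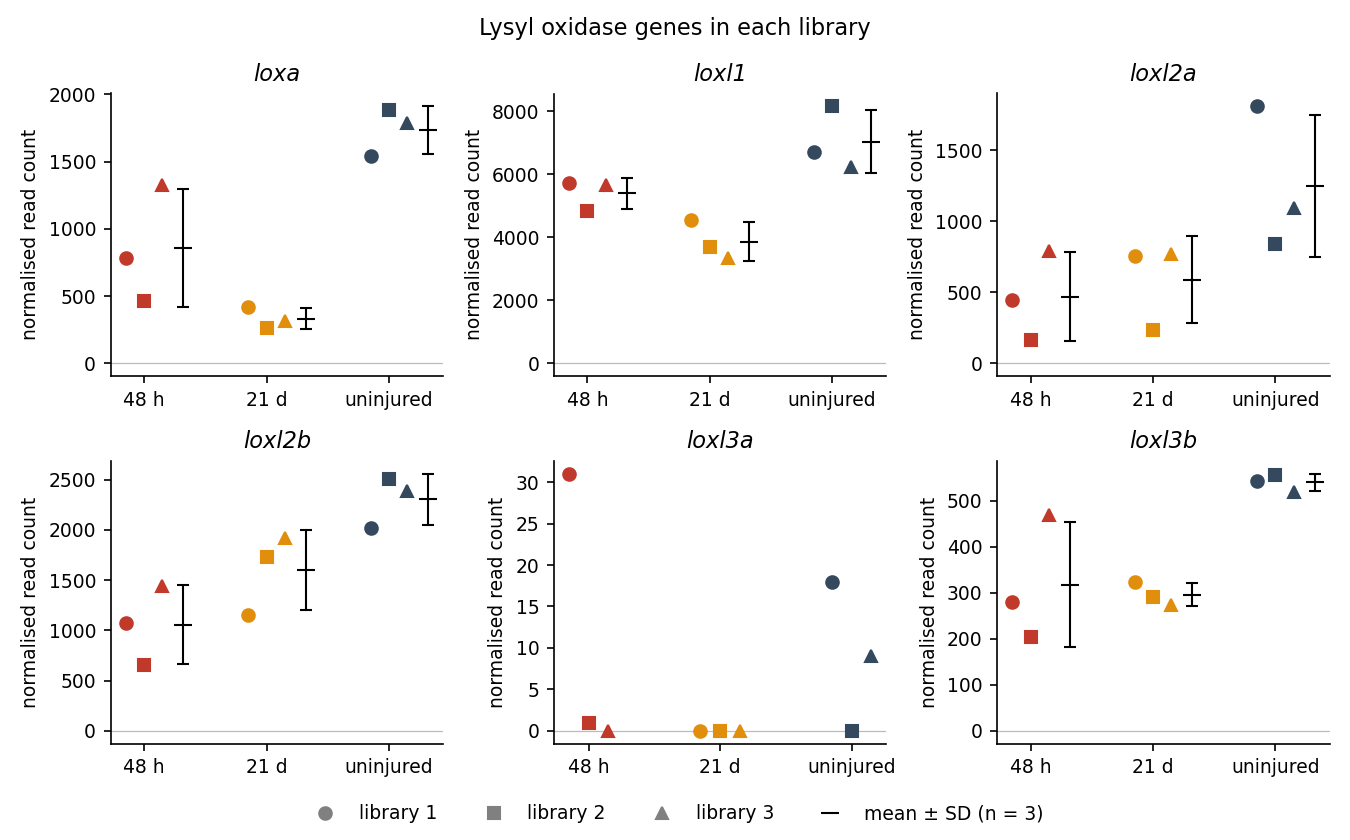
Normalised read counts (y axis, linear, separate scale for each gene) of the 6 lysyl oxidase genes with a row, in each library of the 48 h, 21 d and uninjured groups; symbols mark library numbers, and the bars beside them the mean ± SD of 3 libraries, left out for loxl3a. In loxa the 21 d libraries lie between 263 and 421, below every library of the other groups, and in all genes but loxl3a the uninjured libraries lie highest.

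The gene with the largest called difference was loxa (ENSDARG00000003259), a zebrafish counterpart of mammalian LOX. At 48 h it had 786, 462 and 1328 normalised counts in libraries 1 to 3. The 21 d libraries had 421, 263 and 315, and the uninjured libraries had 1540, 1881 and 1783. As deposited, the 3 groups did not overlap, and the 21 d group was lowest. Under equal column totals, 48 h library 3 overlapped uninjured tissue. Fold changes are fitted on log2 values, so they differ from ratios of the printed means. Loxa averaged 333 ± 80.5 at 21 d and 1735 ± 176 in uninjured tissue (SD, n = 3 each), and the fitted level was 5.28-fold lower at 21 d (log2 fold change -2.40, SE 0.31; adjusted p = 7.0e-05 in limma). By p-value it ranked 18 among the 17891 genes tested in that comparison. At 48 h it averaged 859 ± 438, and the fitted level was 2.20-fold lower than in uninjured tissue (log2 fold change -1.14, SE 0.31; adjusted p = 0.0186 in limma).

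The fall of loxa went on between the times: the fitted 21 d level was 2.40-fold lower than the 48 h level (log2 fold change -1.26, SE 0.31, limma adjusted p = 0.00998). It was the 1 of 5 lysyl oxidase genes that was lower in this comparison, with 0 higher, where 4.4% of all tested genes were lower, 5.48% higher and 9.88% either; groups were lower without overlap for loxa and loxl1, against 13.7% of all tested genes. The 21 d call against uninjured tissue held whichever library was left out, with limma adjusted p of at most 0.00208. The 48 h call was lost without 48 h library 2 (log2 fold change -0.76, adjusted p = 0.135), uninjured library 2 (-1.08, adjusted p = 0.0777) or uninjured library 3 (-1.12, adjusted p = 0.0673), and with equal column totals (-0.86, adjusted p = 0.103). The call between 21 d and 48 h was lost without 48 h library 3 (-0.88, adjusted p = 0.0955) or 21 d library 2 (-1.10, limma adjusted p = 0.0617).

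Loxl1 (ENSDARG00000054451), whose mouse counterpart is needed for the upkeep of elastic fibres, moved least at 48 h and was called lower at 21 d. The 48 h libraries had 5707, 4827 and 5659 normalised counts. The 21 d libraries had 4539, 3703 and 3328, and the uninjured libraries had 6717, 8155 and 6225. As deposited, the groups stepped down without overlap, uninjured highest and 21 d lowest. Once columns were scaled to equal totals, 48 h library 3 reached the uninjured range. At 21 d loxl1 averaged 3857 ± 620, against 7032 ± 1003 in uninjured tissue, a fitted level 1.83-fold lower (log2 fold change -0.87, SE 0.18, limma adjusted p = 0.0110). At 48 h it averaged 5398 ± 495 and did not pass (log2 fold change -0.38, 95% interval -0.74 to -0.01, adjusted p = 0.203). That 48 h value was -0.03 after quantile normalization (adjusted p = 0.941) and -0.0964 with equal column totals (0.795). The difference between 21 d and 48 h, -0.49 on the log2 scale, did not pass either (SE 0.18, adjusted p = 0.0856), so the times were not shown to differ. After quantile normalization that difference passed (adjusted p = 0.00994), as it did once columns were scaled to equal totals (0.00971). The 21 d call was lost without 21 d library 2 (log2 fold change -0.85, adjusted p = 0.0553), 21 d library 3 (-0.77, adjusted p = 0.0847) or uninjured library 2 (-0.76, adjusted p = 0.0973).

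Of the duplicated loxl2 genes, whose mammalian counterpart acts on fibrillar and basement-membrane collagens, loxl2b (ENSDARG00000044074) was called lower at 48 h. Its 48 h libraries had 1074, 659 and 1438 normalised counts. The 21 d libraries had 1153, 1726 and 1919, and the uninjured libraries had 2020, 2506 and 2388. All uninjured libraries were highest, and the 48 h and 21 d libraries overlapped. At 48 h it averaged 1057 ± 390, against 2305 ± 253 in uninjured tissue, and the fitted level was 2.28-fold lower (log2 fold change -1.19, SE 0.26, limma adjusted p = 0.00333), and this call held whichever library was left out. At 21 d it averaged 1599 ± 398 and did not pass (log2 fold change -0.55, 95% interval -1.09 to -0.02, adjusted p = 0.398). The fitted level at 21 d was 1.55 times that at 48 h (log2 fold change 0.64, SE 0.26), which did not pass (adjusted p = 0.137). Without 48 h library 3 it passed, at a log2 fold change of 0.89 (adjusted p = 0.0449).

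The copy loxl2a (ENSDARG00000044010) had the widest spread of the 5 tested genes. Its 48 h libraries had 444, 167 and 793 normalised counts. The 21 d libraries had 758, 235 and 771, and the uninjured libraries had 1810, 843 and 1093. As deposited, every uninjured library was above every library of the other groups, while 48 h and 21 d overlapped. Scaled to equal column totals, both groups after ablation overlapped uninjured tissue. The log2 fold changes against uninjured tissue were -1.61 at 48 h (95% interval -3.12 to -0.09, adjusted p = 0.189) and -1.20 at 21 d (95% interval -2.71 to 0.32, adjusted p = 0.545), and neither passed. Without 48 h library 3 the 48 h difference passed, at -2.12 (adjusted p = 0.0486). The 48 h interval runs from a small to a large difference.

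Both loxl3 genes had a row. In mice, loss of Loxl3 causes cleft palate and spinal defects. Loxl3b (ENSDARG00000039563) had 280, 205 and 469 normalised counts at 48 h. It had 324, 292 and 273 at 21 d, and 543, 557 and 520 in uninjured tissue. The uninjured values were tight, with an SD of 18.7 around a mean of 540, and as deposited lay above all others. Under equal column totals, 48 h library 3 lay above them. The log2 fold changes of loxl3b against uninjured tissue were -0.85 at 48 h (SE 0.34, adjusted p = 0.126) and -0.87 at 21 d (SE 0.34, adjusted p = 0.282), and neither passed over all tested genes. Between 21 d and 48 h the log2 difference was -0.02, with a 95% interval from -0.73 to 0.69.

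Loxl3a (ENSDARG00000076306) was near the limit of detection. It had values of 31, 1 and 0 at 48 h, 0 in all 3 libraries at 21 d, and 18, 0 and 9 in uninjured tissue. A value of 0 allows up to 3 reads, which is a normalised value between 2.15 and 3.52 depending on the library, counting error only. The groups overlapped at 48 h, and no difference in loxl3a was detectable at this depth. Of the related symbols outside the 7, loxl4 (ENSDARG00000025089) had 186, 56 and 165 at 48 h, 122, 170 and 177 at 21 d and 203, 246 and 157 in uninjured tissue, and it passed in none of the 3 comparisons (adjusted p from 0.436 to 0.843). The genes loxl5a and loxl5b were at or below 30 in every library.

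**Figure D2:**
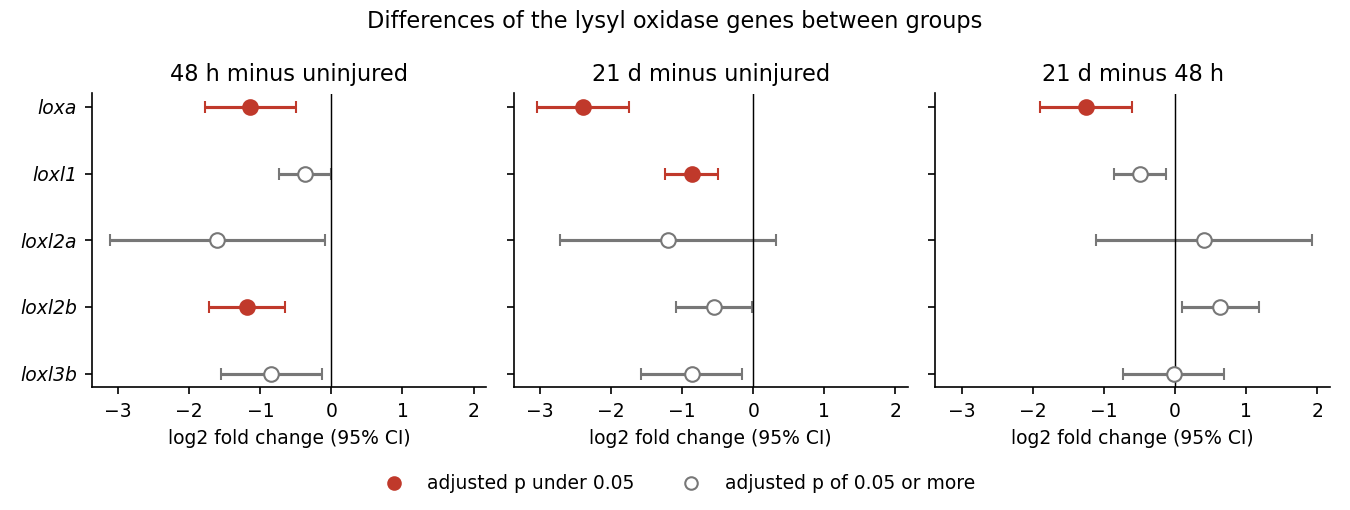
Log2 fold changes (x axis) with 95% confidence intervals from limma-trend for the 5 tested lysyl oxidase genes in the 3 comparisons; filled red points passed at adjusted p under 0.05. Loxa is filled in all 3 panels, from -1.14 at 48 h to -2.40 at 21 d against uninjured tissue, while the interval of loxl2a is the widest in each panel.

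When the trend of variance with expression was left out, the effect sizes stayed as they were and all 5 calls were lost: loxa (adjusted p = 0.184) and loxl2b (0.126) at 48 h, loxa (0.113) and loxl1 (0.3305) at 21 d, and loxa between the times (0.156). Over all genes the count of lower calls at 21 d then was 33, against 167 with the trend.

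Within the 48 h group the same libraries were low or high in most members. In 48 h library 2, 5 of 5 tested lysyl oxidase genes were at the lowest value of the group, and in 48 h library 3, 4 of 5 were at the highest. The marker sum of interstitial cells and fibroblasts was 0.290% in 48 h library 2, 0.354% in 48 h library 3 and 0.404% in 48 h library 1. Its order differed from that of the 4 genes highest in library 3. The erythrocyte marker sum had the opposite order to those 4 genes, with 4.04% in 48 h library 2, 3.47% in library 1 and 1.87% in library 3. The thrombocyte sum was likewise 0.0753%, 0.0729% and 0.0677% in libraries 2, 1 and 3, but none of its measured markers had that order. In 48 h libraries 1 to 3, thbs1b had 8923, 8910 and 6479 and gp1bb had 2256, 3349 and 3178. Itga2b had 441, 1244 and 694 there, and mpl had 49, 32 and 62. The sums of the remaining cell types followed neither order. The number of genes above 0 had the same order as those 4 genes, with 18720 in 48 h library 3, 17428 in library 1 and 16203 in library 2. Column totals of the normalised counts had the opposite order, with 17979624 in 48 h library 2, 16001912 in library 1 and 15383031 in library 3. The part of the number of genes above 0, of the column totals or of any of the marker sums in the spread was not tested. The coefficient of variation of loxa was 51.0% at 48 h, 24.2% at 21 d and 10.1% in uninjured tissue. For loxl3b it was 42.8% at 48 h, 8.698% at 21 d and 3.46% in uninjured tissue. Only 3 libraries stand behind each of these spreads.

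Added over the 6 genes, the normalised counts were 8322, 6321 and 9687 at 48 h. They were 7195, 6219 and 6606 at 21 d, and 12648, 13942 and 12018 in uninjured tissue. The sum was thus 8110 ± 1693 at 48 h, 6673 ± 491 at 21 d and 12869 ± 981 in uninjured tissue (SD, n = 3 each), and no library after ablation reached an uninjured one. The share of the sum held by each gene is given without a test. The share of loxa was 10.2% ± 3.26 at 48 h, 4.95% ± 0.826 at 21 d and 13.5% ± 1.33 in uninjured tissue. The share of loxl2b was 12.7% ± 2.22 at 48 h, 24.3% ± 7.17 at 21 d and 17.9% ± 1.95 in uninjured tissue. That of loxl1 was 67.8% ± 8.999 at 48 h, 57.7% ± 6.56 at 21 d and 54.5% ± 3.55 in uninjured tissue. These shares are of reads, not divided by transcript length, so they follow 1 gene across groups and do not rank the genes by RNA molecules.

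**Figure D3:**
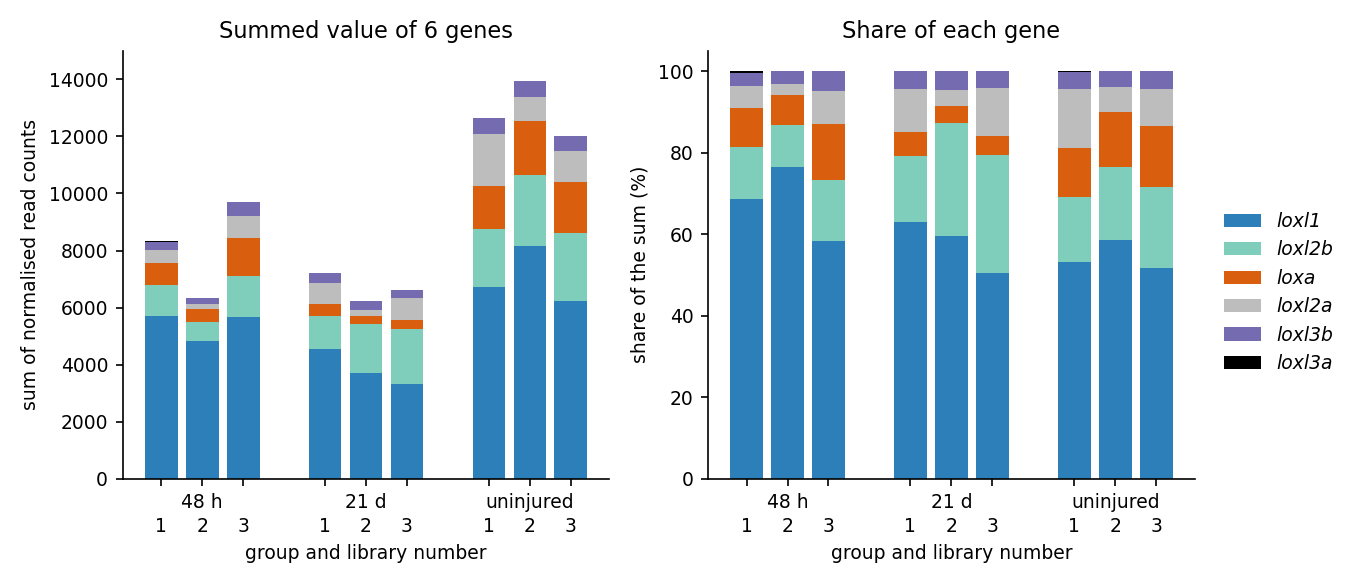
Left, the summed normalised read counts of the 6 lysyl oxidase genes in each library (bars, stacked by gene, y axis from 0); right, the share of each gene in that sum in percent. The uninjured bars (12018 to 13942) stand above all others, and the loxa segment is narrowest in the 21 d libraries (4.23% to 5.85%). Values are not divided by transcript length.

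Ratios between genes of the same library do not depend on a factor that scales the whole library, though quantile normalization can change them. The pairs that follow were chosen after their values were seen, so they are described without a test, and with 3 libraries against 3 an exact two-sided permutation test cannot go below p = 0.1. The ratio of loxl2b to loxa was 1.37, 1.43 and 1.083 at 48 h. It was 2.74, 6.56 and 6.09 at 21 d, and 1.31, 1.33 and 1.34 in uninjured tissue. The range of the 48 h ratios took in the uninjured ones, and every 21 d ratio was above both groups. The ratio of loxa to loxl1 was 0.138, 0.0957 and 0.235 at 48 h, 0.0928, 0.0710 and 0.0947 at 21 d, and 0.229, 0.231 and 0.286 in uninjured tissue, so the 21 d group did not overlap the others.

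Most tested genes of fibrillar collagens, the main substrates, fell at 48 h, and none passed at 21 d against uninjured tissue, where few genes passed at all. Of 15 fibrillar collagen genes named, 10 were tested, and 7 fell and 0 rose at 48 h, where 6.33% of all tested genes fell (median log2 fold change -1.21). At 21 d 0 of 10 passed in limma against uninjured tissue in either direction, where 1.45% of all tested genes did, so a count of 0 is near that share. At an unadjusted p under 0.05, 4 of 10 were lower and 0 higher, where 6.27% of all tested genes were lower and 5.61% higher. The median log2 fold change of the 10 at 21 d was -0.32. Between the times, 5 of 10 were higher at 21 d than at 48 h, where 5.48% of all tested genes were higher. Of those 5, only col1a1a, col1a1b and col1a2 were followed gene by gene under other settings. Without the mean-variance trend, col1a2 (adjusted p = 0.0860) and col1a1a (0.122) lost that call, and col1a1b kept it. The collagen I chain gene col1a2 averaged 16580 ± 2210 at 48 h, 32848 ± 4787 at 21 d and 42816 ± 5234 in uninjured tissue (48 h against uninjured: log2 fold change -1.37, SE 0.15; adjusted p = 7.5e-07 in limma). The other collagen I genes col1a1a and col1a1b fell too at 48 h, with log2 fold changes of -1.05 and -1.499 (limma adjusted p = 4.5e-05 and 7.4e-08). Per 1000 reads of col1a2, loxa had 41.2, 31.1 and 83.9 at 48 h. It had 14.3, 8.57 and 8.22 at 21 d, and 40.8, 39.0 and 42.0 in uninjured tissue. Every 21 d library was thus below every other library, on the ratio scale and in loxa itself. Col1a2 was not called lower at 21 d than in uninjured tissue (limma adjusted p = 0.269, and no lower than 0.174 in 21 alternatives). Its log2 fold change there was -0.38, with a 95% interval from -0.69 to -0.08, so a smaller fall was not excluded.

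Elastic fibres are the substrate tied to LOXL1 in mice. Of 22 elastic-fibre genes named, 15 were tested, of which 7 fell and 1 rose at 48 h, where 6.33% of all tested genes fell and 4.44% rose. At 21 d 2 fell and 0 rose, where 0.933% fell. Between the times 6 were higher and 2 lower at 21 d than at 48 h, where 5.48% of all tested genes were higher and 4.4% lower. The elastin gene elnb had 89, 81 and 61 normalised counts at 48 h, 597, 439 and 417 at 21 d and 1961, 4224 and 2580 in uninjured tissue. It fell by 5.17 on the log2 scale at 48 h (SE 0.33, limma adjusted p = 1.9e-10) and by 2.53 at 21 d (limma adjusted p = 7.0e-05). Fibulin 5, fbln5, which tethers elastin and binds LOXL1 in mammals, averaged 235 ± 121 at 48 h, 835 ± 311 at 21 d and 3350 ± 895 in uninjured tissue, with log2 fold changes of -3.93 at 48 h and -2.03 at 21 d (limma adjusted p = 3.3e-07 and 0.00482). Loxl1 itself did not pass at 48 h, and the ratio of loxl1 to elnb was 64.1, 59.6 and 92.8 at 48 h, 7.60, 8.44 and 7.98 at 21 d and 3.43, 1.93 and 2.41 in uninjured tissue. The gene that rose, mfap4, is used as a macrophage marker in zebrafish and stands in that list too (log2 fold change 3.97 at 48 h, limma adjusted p = 1.3e-05). The fibulin 4 genes efemp2a and efemp2b, whose mammalian product brings LOX to tropoelastin, passed in none of the 3 comparisons. Efemp2a averaged 937 ± 356 at 48 h, 518 ± 129 at 21 d and 802 ± 97.7 in uninjured tissue. Efemp2b averaged 1655 ± 371 at 48 h, 1495 ± 202 at 21 d and 1220 ± 433 in uninjured tissue. In 3 of 21 alternatives efemp2a was lower at 21 d than at 48 h, with the lowest adjusted p, 0.0112, without 48 h library 1.

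**Figure D4:**
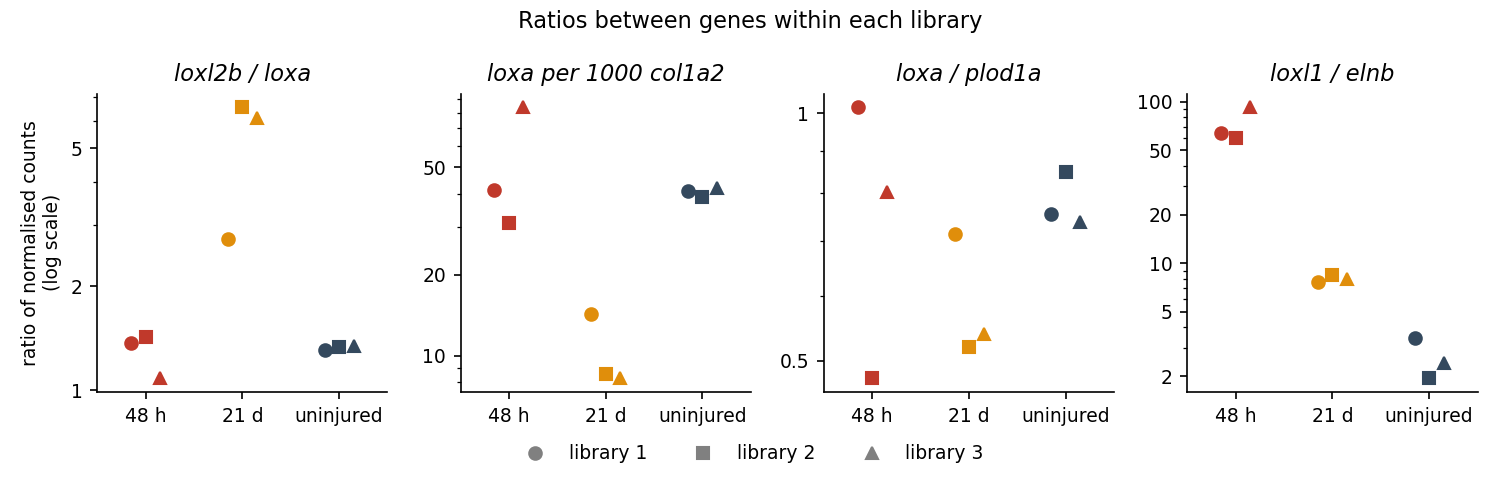
Ratios of normalised read counts within each library (y axes, log scale, not divided by transcript length) for 4 gene pairs in the 48 h, 21 d and uninjured groups; symbols mark library numbers. The loxl2b to loxa ratio lies between 2.74 and 6.56 at 21 d and at or below 1.43 in every other library, and the loxl1 to elnb ratio is at least 59.6 in every 48 h library and at most 3.43 in every uninjured one.

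Genes that activate lysyl oxidases or hold them in the matrix were counted next. Of 15 activation and scaffold genes, 13 were tested, and 3 fell and 2 rose at 48 h, where 6.33% of all tested genes fell and 4.44% rose. At 21 d 2 fell and 0 rose, where 0.933% fell and 0.52% rose. Between the times 2 were higher and 4 lower at 21 d than at 48 h, where 5.48% of all tested genes were higher and 4.4% lower. Both genes that rose at 48 h were fibronectins, a scaffold on which LOX is cut in mammals. Fn1b averaged 97584 ± 9082 at 48 h, 31286 ± 3093 at 21 d and 44805 ± 8380 in uninjured tissue, with a fitted level 2.20-fold higher at 48 h than uninjured (limma adjusted p = 6.1e-06), and fn1a was 2.28-fold higher (limma adjusted p = 2.8e-04). Periostin b, postnb, fell by 2.44 on the log2 scale at 48 h (limma adjusted p = 1.4e-07). It was higher at 21 d than at 48 h (log2 fold change 2.22, limma adjusted p = 6.7e-07) and averaged 3165 ± 971 at 21 d and 3579 ± 403 in uninjured tissue. Postna averaged 3682 ± 2191 at 48 h and 4685 ± 834 in uninjured tissue, a difference that did not pass (limma adjusted p = 0.562). The protease gene bmp1a had 233, 205 and 421 normalised counts at 21 d and 683, 947 and 1473 in uninjured tissue (log2 fold change -1.85, SE 0.33, limma adjusted p = 0.00390). At 48 h bmp1a had 485, 578 and 725, which overlapped the uninjured range and did not pass (adjusted p = 0.176). The procollagen C-proteinase enhancer pcolcea fell by 1.36 at 48 h and by 0.98 at 21 d (limma adjusted p = 8.3e-06 and 0.00390).

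Other enzymes that modify or crosslink matrix proteins formed a further list. Of 11 named, 6 were tested, and 2 fell and 0 rose at 48 h, where 6.33% of all tested genes fell. At 21 d 1 fell and 0 rose, where 0.933% fell. Lysyl hydroxylases act on collagen lysines inside the cell, before lysyl oxidases act on them outside. The lysyl hydroxylase gene plod1a (ENSDARG00000059746) had 772, 971 and 1655 normalised counts at 48 h, 590, 506 and 585 at 21 d and 2040, 2216 and 2420 in uninjured tissue. Its fitted level was 2.06-fold lower at 48 h and 3.97-fold lower at 21 d than in uninjured tissue (limma adjusted p = 0.00834 and 7.0e-05), and 1.92-fold lower at 21 d than at 48 h (adjusted p = 0.0191). Its 48 h call was lost without 48 h library 1 (adjusted p = 0.0501) and with equal column totals (0.0707), and its call between the times without 48 h library 3 (0.152) or 21 d library 2 (0.0767). Its relative plod2, which hydroxylates collagen telopeptides, averaged 2746 ± 672 at 48 h, 1156 ± 552 at 21 d and 1737 ± 49.9 in uninjured tissue, and passed only between 21 d and 48 h (log2 fold change -1.33, adjusted p = 0.00290). The transglutaminase gene tgm2b and the peroxidasin gene pxdn passed in none of the 3 comparisons. The factor XIII gene f13a1a.1, a transglutaminase, had 13, 0 and 14 at 48 h, 11956, 3419 and 3833 at 21 d and 4978, 950 and 1328 in uninjured tissue (48 h against uninjured, limma adjusted p = 0.00863). Without the mean-variance trend, the genes described in these lists that lost a call were col1a1a, fn1a, fn1b and plod1a at 48 h, elnb, fbln5, pcolcea, bmp1a and plod1a at 21 d, and col1a1a, col1a2, fbln5, bmp1a, plod1a and plod2 between the times.

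**Figure D5:**
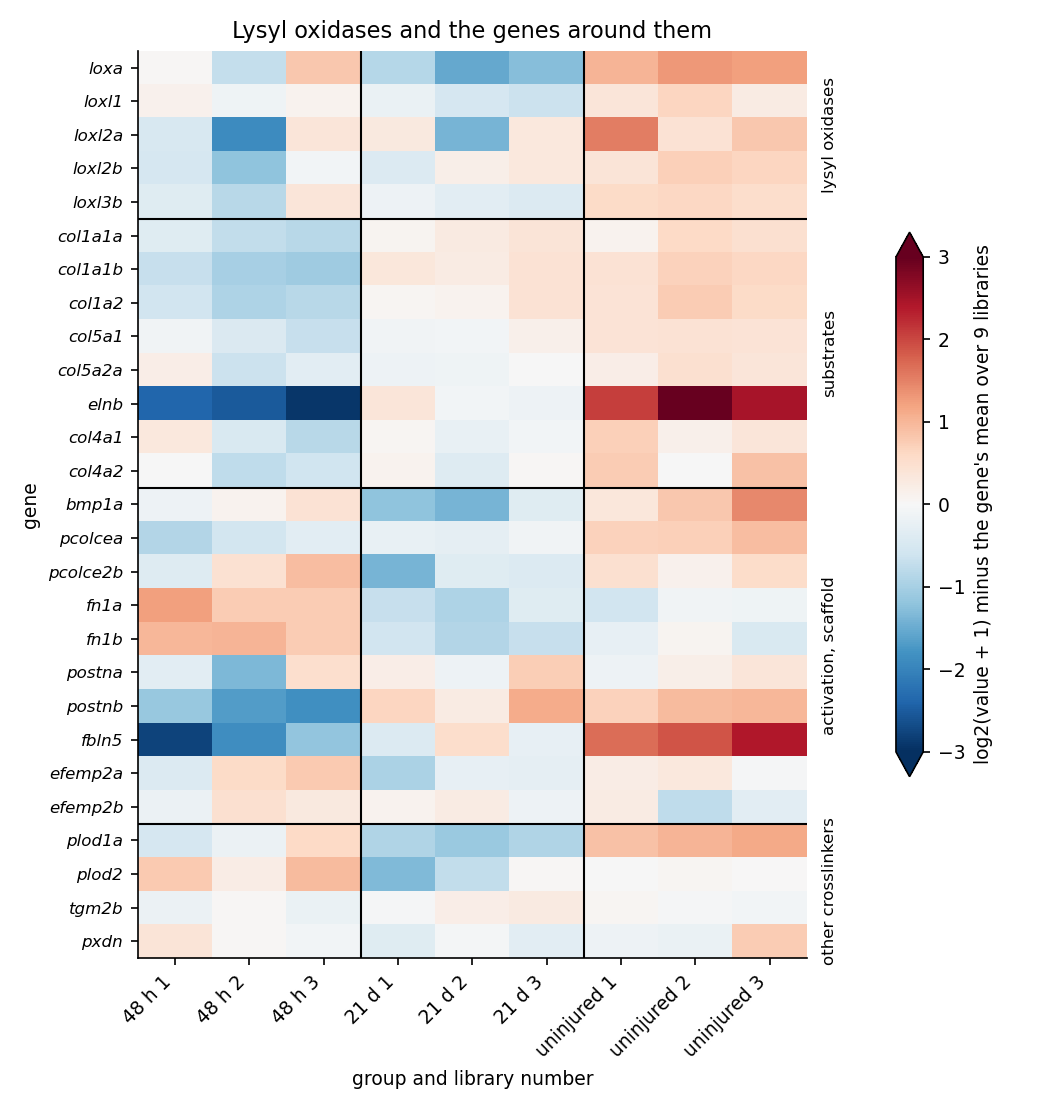
Heat map of log2(value + 1) minus each gene's mean over 9 libraries (colour, red above and blue below the mean) for the 5 tested lysyl oxidase genes, substrates, activation and scaffold genes and other crosslinking enzymes (rows) in each library (columns). Loxa and plod1a are lowest in the 21 d columns, while collagen I and elnb are lowest in the 48 h columns; colours are cut at 3 on either side.

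The genes whose profiles lay nearest to the called members were found among 10771 tested genes with a mean of at least 100, by the root mean square difference of centred log2 values over 9 libraries. For loxa the nearest was plod1a, at 0.34, followed by the semaphorin gene sema3bl at 0.40 and the protocadherin gene pcdh10a at 0.46, where loxa itself varied by 1.06 around its mean on that scale. For loxl2b the nearest were the membrane metalloprotease gene mmp14a (0.16), rbm25a (0.16) and the receptor phosphatase gene ptprfb (0.17), against a variation of 0.59 for loxl2b itself. For loxl1 they were nhlrc2 (0.16), rbm5 (0.18) and mibp2 (0.18), against 0.39 for loxl1 itself. Among the 5 tested members, the closest pair was loxl1 and loxl3b (0.34), and the most distant was loxl2b and loxa (0.95).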

How the data were processed

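Per the labels' protocols, 20 ng of total RNA per sample was enriched for polyA RNA, and strand-marking libraries were sequenced as 2 × 75 bp. Per the submitters' processing notes, the tools were FastQC 0.11.8, Trimmomatic 0.33, STAR 2.6.0c, featureCounts 1.6.0 and DESeq2 1.18.1, with danRer11 (GRCz11). The deposited values are a normalised signal: read counts that the authors divided by a size factor and rounded. When median-of-ratios factors were computed again from 13019 genes above 0 in every library, they lay within 0.0785% of 1.

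Values were log2-transformed after adding 1 and fitted with limma 3.58.1 (R 4.3.3; trend and robust options) over all 9 libraries, with 6 residual degrees of freedom, two-sided, adjusted by Benjamini-Hochberg over 17891 genes. Folds on this scale understate the change of low genes. Identical values made up 8.44% to 16.4% of genes in library pairs, and no pair was merged. The fit was tested on simulated data. The members and gene lists were chosen with earlier results of these data known, and lists have no set test. Named are all members, other symbols starting with lox, the 3 genes of each list with the smallest adjusted p among those called, list genes whose role is stated, and the 3 nearest profiles of each called member. Of the gene IDs, 20518 of 21692 matched a table of names. Sequences, transcript lengths and coordinates were not used here, so no planned protein or promoter description was made. Alternatives were other scalings (with TMM computed by its formula), pseudocounts, filters and variance settings, a block on library number, fits of 2 groups and each library left out. Plots used Python 3.11.15 with matplotlib 3.10.9.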

Additional observations from a re-analysis of the deposited data

How the results depend on the processing

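Over 12 settings, 170 of 180 log2 fold changes of the members kept their direction and their side of the threshold, as did 122 of 135 with 1 library left out. Against uninjured tissue every tested member kept a negative value under all of these, but loxl1 at 48 h, -0.38 in the reported fit, was close to 0 with quantile normalization (-0.03) and equal column totals (-0.0964). With equal column totals, which put the median of all genes at 0.28 at 48 h and at -0.24 between the times, against 0.01 and 0.00 in the reported fit, 1348 genes were higher and 653 lower at 48 h, against 794 and 1133. Likewise 605 were higher and 1281 lower at 21 d than at 48 h, against 980 and 788. The loxa value at 48 h was then -0.86 and no longer passed, and loxl1 between the times was -0.74 and passed. Quantile normalization gave -0.71 for loxl1 between the times, which passed, and turned loxl3b between the times to 0.029. Without the mean-variance trend, 294 genes were higher and 390 lower at 48 h, 11 higher and 33 lower at 21 d, and 253 higher and 199 lower between the times. The calls of loxl2b (-1.19) and loxa (-1.14) at 48 h, loxl1 (-0.87) and loxa (-2.40) at 21 d, and loxa between the times (-1.26) were lost at unchanged values. Fitting only the 2 groups compared gave 146 higher and 266 lower at 21 d. The cause of these shifts was not tested.

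With a replicate block, loxl2a at 48 h (-1.61) passed (adjusted p = 0.00271), and no other member's call changed. In each group loxl2a was lowest in library 2 (167 at 48 h, 235 at 21 d and 843 in uninjured tissue). Over all tested genes, deviations of same-numbered libraries of different groups were nearly uncorrelated (from -0.0204 to 0.0271 over 9 pairs). That gave no sign that the numbers pair samples. It cannot exclude it, since a shared step that acts on few genes would leave these correlations near 0.

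With 1 library left out, calls ranged from 513 to 794 higher at 48 h, from 27 to 117 higher and 69 to 216 lower at 21 d, and from 618 to 1042 higher and 490 to 816 lower between the times. At 48 h loxa ranged from -1.52 to -0.76 and loxl2a from -2.12 to -0.998. At 21 d loxl1 ranged from -0.99 to -0.76. Between the times loxa ranged from -1.64 to -0.88 and loxl2b from 0.33 to 0.89. Uncalled values between the times turned sign for loxl2a (-0.20 to 0.97), loxl3b (-0.29 to 0.30, with 0.04 without 21 d library 3) and loxl4 (-0.18 to 0.67), and so did loxl5a at 21 d (-0.69 to 1.79). At this depth loxl3a, loxl5a and loxl5b were too low to compare.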

Other observations

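Further lists around collagen were counted too. Of 8 tested small leucine-rich proteoglycan genes, which coat collagen fibrils, 4 fell and 0 rose at 48 h, where 6.33% of all tested genes fell. At 21 d against uninjured tissue 0 passed in limma, where 1.45% of all tested genes did. At an unadjusted p under 0.05, 3 were lower, where 6.27% of all tested genes were. Between the times 3 were higher at 21 d, where 5.48% of all tested genes were, and of these prelp (adjusted p = 0.0572) and lum (0.0573) lost the call without the mean-variance trend. Decorin, dcn, averaged 10440 ± 1430 at 48 h, 29935 ± 1337 at 21 d and 37479 ± 1839 in uninjured tissue (48 h against uninjured: log2 fold change -1.85, SE 0.14; adjusted p = 3.7e-09 in limma). The fall at 48 h was 2.35 on the log2 scale for prelp (limma adjusted p = 1.2e-06) and 5.41 for lum (limma adjusted p = 4.9e-04). At 21 d lum averaged 679 ± 311, against 2450 ± 1106 in uninjured tissue, without overlap. That difference did not pass (log2 fold change -1.87, limma adjusted p = 0.279), but it did in 2 of 21 alternatives. The lowest adjusted p was 0.00994 in limma, without 48 h library 2. Of 5 tested collagen IV genes, 2 fell at 48 h and 0 rose, where 6.33% of all tested genes fell and 4.44% rose. These were col4a2 (log2 fold change -0.999, limma adjusted p = 0.0118) and col4a6 (-1.45, limma adjusted p = 0.0454). The call of col4a2 was lost without 48 h library 2 (adjusted p = 0.0649), uninjured library 1 (0.0626) or uninjured library 3 (0.0815), with equal column totals (0.103) or without the trend (0.172). That of col4a6 was lost without 48 h library 3 (adjusted p = 0.197), 21 d library 1 (0.0599), 2 (0.0555) or 3 (0.0607), or uninjured library 1 (0.136), 2 (0.0831) or 3 (0.0997), and under 6 of 12 settings.

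Snail factors bind LOXL2 and LOXL3 in mammalian cells. Of 3 tested, snai1a and snai1b did not pass at 48 h, and both overlapped uninjured tissue. Snai1a averaged 311 ± 88.4 at 48 h and 217 ± 109 in uninjured tissue. Snai1b averaged 723 ± 111 at 48 h and 979 ± 289 in uninjured tissue. Only snai2 was called lower at 48 h, where 6.33% of all tested genes were. It had 331, 246 and 732 normalised counts at 48 h, 1109, 1485 and 1617 at 21 d and 1638, 1783 and 1629 in uninjured tissue (48 h against uninjured: log2 fold change -2.10, SE 0.31, limma adjusted p = 5.4e-05).

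Lysyl oxidases need copper, which atp7a pumps into the secretory pathway. Atp7a averaged 1083 ± 193 at 48 h, 1093 ± 167 at 21 d and 1151 ± 201 in uninjured tissue, and passed in none of the 3 comparisons. The copper importer slc31a1 averaged 1122 ± 246 at 48 h, 725 ± 141 at 21 d and 770 ± 19.3 in uninjured tissue. It did not pass either, except with equal column totals at 48 h against uninjured tissue (adjusted p = 0.0441) and at 21 d against 48 h (0.0281). Of 12 tested copper-handling genes, 1 rose and 0 fell at 48 h, where 4.44% of all tested genes rose and 6.33% fell. At 21 d against uninjured tissue 0 passed in limma, where 1.45% of all tested genes did. At an unadjusted p under 0.05, 1 was lower, where 6.27% of all tested genes were. Between the times 2 were lower at 21 d, where 4.4% of all tested genes were. The metalloreductase gene steap4 had 1005, 1987 and 1001 normalised counts at 48 h, 54, 42 and 156 at 21 d and 98, 89 and 52 in uninjured tissue (48 h against uninjured: log2 fold change 4.02, SE 0.50; adjusted p = 5.5e-06 in limma). The copper chaperone atox1 was lower at 21 d than at 48 h (log2 fold change -1.65, adjusted p = 0.0336), a call lost without 48 h library 2 (0.1003) or 3 (0.116) or 21 d library 2 (0.130) or 3 (0.0550), or without the trend (0.0896). The amine oxidase gene aoc2, the 1 tested of 3 named copper amine oxidases outside the family, passed in none of the 3 comparisons.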
